A study of Mus musculus with 6 samples.

Results

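The 39 protein-coding Hox genes of the mouse were followed in haematopoietic stem cells (HSCs), which renew blood throughout life, sorted into a CD38-positive and a CD38-negative population. The genes were chosen by name and biotype from the 49585 genes of each count table: 11 in cluster A (GRCm38 chromosome 6), 10 in cluster B (chromosome 11), 9 in cluster C (chromosome 15) and 9 in cluster D (chromosome 2). The cells came from untreated C57BL/6 mice aged 8 to 16 weeks, and both populations shared the sort for Lin-, Kit+, Sca-1+, CD48-, CD150+, CD34- and CD201+ bone marrow cells. They differed in surface CD38, an enzyme that consumes NAD. There were 3 bulk RNA-seq libraries per population, each from the pooled cells of 10 mice and matched in 3 pairs by the series' design, and whether paired libraries shared mice is not given in the sources used here. The comparison asks which transcripts differ between HSCs with high and low CD38, and here it is read for the Hox genes.

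Hox genes encode homeodomain transcription factors that lie in 4 clusters and set position along the body axis of the embryo. Genes with the same number in different clusters are paralogs, and within a cluster low numbers lie at one end and high numbers at the other. In blood formation Hox genes are known for high expression in stem and progenitor cells and lower expression in mature cells. HOX proteins bind DNA together with TALE homeodomain partners of the MEIS and PBX families, MLL complexes keep Hox genes active and Polycomb complexes keep them silent.

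In all 6 libraries the Hox transcripts came almost wholly from clusters A and B. Cluster A held 10005 of the 11221 Hox reads (89.2%), cluster B 1194 reads (10.6%), cluster C 20 reads and cluster D 2 reads. The neighbours Hoxa7, Hoxa9 and Hoxa10 together held 9544 reads, or 85.1%. A gene is called on here at 1 CPM (counts scaled to a common library size, with totals adjusted by the trimmed mean of M-values) or more. By that measure 4 genes were on in every library (Hoxa7, Hoxa9, Hoxa10 and Hoxb5) and 11 in at least 1 library, adding Hoxa2, Hoxa3, Hoxa5, Hoxb2, Hoxb3, Hoxb6 and Hoxb9. The number on per library was 5, 7 and 11 in CD38-positive replicates 1, 2 and 3 and 8, 9 and 9 in their CD38-negative partners.

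**Figure D1:**
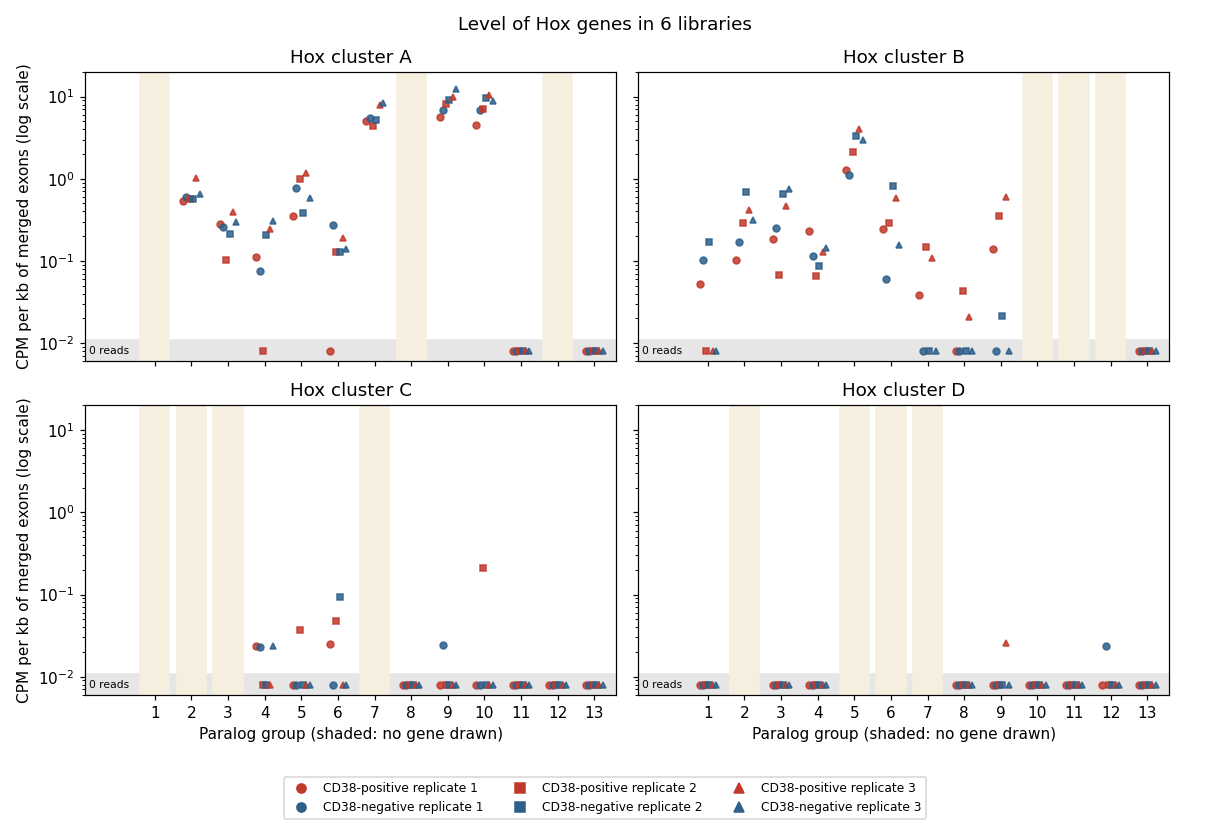
Level of 38 Hox genes in each library (CPM per kb of merged exons, log axis) against its paralog group, in 1 panel per cluster; the grey band holds libraries with 0 reads and the sand bands mark paralog groups with no gene drawn. Hoxa7, Hoxa9, Hoxa10 and Hoxb5 lie highest, and clusters C and D lie mostly in the band of 0 reads.

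The sequences before RefSeq starts of the leading genes and of their silent neighbour are shown because the change from the most abundant Hox genes to none fell between adjacent genes. Hoxa10 and Hoxa11 are 1251 bases apart in the annotation, and Hoxa9 and Hoxa10 107 bases. Each line gives the 250 bases before a RefSeq start (GRCm38.p6, minus strand, 5′ to 3′), and capitals mark a CCAAT box or a TTTATG word. The windows are Hoxa7 at chr6:52218574-52218823, Hoxa9 at chr6:52227371-52227620, Hoxa10 at chr6:52234940-52235189 (the nearer to Hoxa9 of 2 RefSeq starts) and Hoxa11 at chr6:52245811-52246060.
Hoxa7: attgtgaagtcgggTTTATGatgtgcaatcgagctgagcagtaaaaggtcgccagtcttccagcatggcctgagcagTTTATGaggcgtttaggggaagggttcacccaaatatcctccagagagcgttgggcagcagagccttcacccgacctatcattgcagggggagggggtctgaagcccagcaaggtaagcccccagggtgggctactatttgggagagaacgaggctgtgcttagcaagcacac
Hoxa9: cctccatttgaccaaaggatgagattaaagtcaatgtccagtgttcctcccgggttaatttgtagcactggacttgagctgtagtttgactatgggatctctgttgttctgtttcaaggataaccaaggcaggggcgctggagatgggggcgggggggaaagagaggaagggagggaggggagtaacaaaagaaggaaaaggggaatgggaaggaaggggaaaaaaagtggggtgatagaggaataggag
Hoxa10: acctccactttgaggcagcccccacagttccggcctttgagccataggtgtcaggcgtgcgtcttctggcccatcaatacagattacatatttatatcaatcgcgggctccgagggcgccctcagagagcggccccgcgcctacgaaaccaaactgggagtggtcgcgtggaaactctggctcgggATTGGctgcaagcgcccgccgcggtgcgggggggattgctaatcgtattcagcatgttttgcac
Hoxa11: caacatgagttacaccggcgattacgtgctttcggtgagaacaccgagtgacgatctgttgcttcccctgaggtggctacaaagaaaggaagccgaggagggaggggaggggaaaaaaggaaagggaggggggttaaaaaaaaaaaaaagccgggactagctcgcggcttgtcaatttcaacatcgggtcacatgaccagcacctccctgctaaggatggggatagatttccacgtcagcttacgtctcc

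The table of RefSeq promoters held 24 windows for 22 of the 39 Hox genes, 6 of them among the 11 that were on. CCAAT (a general promoter word, both strands) occurred in 14 of the 24 windows (58.3%), against 33.8% of all 32851 windows of that length. TTTATG, a word bound by CDX and posterior HOX proteins, occurred in 5 (20.8%, against 10.8%), 2 times before Hoxa7. TGATNNAT, a PBX-HOX composite, occurred in 4 (16.7%, against 7.68%), and TGACAG, a MEIS word, in 2 (8.33%, against 15.9%). The words were searched on both strands, and none contains another. CpG dinucleotides were at a median of 0.72 of the number that base composition gives in the Hox windows, against 0.37 in all windows. The median was 0.47 in the 7 windows of Hox genes on in at least 1 library and 0.76 in the 17 windows of those on in none. Shares over the 24 windows therefore describe mostly genes that were not on. In the printed windows the value was 0.39 before Hoxa7, 0.27 before Hoxa9, 0.91 before Hoxa10 and 0.79 before the silent Hoxa11. GC content was 54.8%, 49.6%, 59.2% and 52.0% in those windows. The Hoxa7, Hoxa9 and Hoxa10 windows lie inside the annotated genes, before an internal start, while the Hoxa11 window lies upstream of its whole gene, so the windows are not of 1 kind. These counts describe the windows and say nothing of binding.

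The clusters also hold genes for the miRNA families miR-10 and miR-196, whose members in different clusters share a seed (bases 2 to 8, in capitals) and are known to act on Hox transcripts. They are shown because the pairs are paralogs in the same sense as the Hox genes.
mmu-miR-196b-5p: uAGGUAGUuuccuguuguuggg
mmu-miR-196a-5p: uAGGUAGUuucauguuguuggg
mmu-miR-10a-5p: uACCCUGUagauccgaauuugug
mmu-miR-10b-5p: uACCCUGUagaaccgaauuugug
Mir196b, within the Hoxa9 gene, Mir196a-1 and Mir196a-2 had 0 reads in the 6 libraries, Mir10b 0 and Mir10a 1. Mature miRNAs are too short for libraries of this kind to measure, so these values do not bear on their level.

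Depth and sort purity set limits that apply to every gene. Total counts ran from 16771180 to 18558610 per library, 1 read was 0.055 to 0.061 CPM, and a gene with 0 reads could lie at up to 0.166 to 0.183 CPM (3 reads; counting error only). Reads of 14 granulocyte and monocyte genes took 8.67% to 16.9% of a library, and reads of 13 HSC genes other than Hox genes (Meis1 and Hlf among them) took 0.102% to 0.292%. The part of such cells in the Hox values was not tested. Fewer HSCs in a library and less Hox RNA per HSC cannot be told apart in bulk data. Cd38 itself was counted 617, 819 and 1057 times in CD38-positive libraries, against 406, 641 and 391 times. Its log2 fold change of CD38-positive over CD38-negative cells was 0.76 (SE 0.23). In edgeR's quasi-likelihood test the unadjusted p was 0.00477 and the adjusted p 0.89. The transcript of the sorted marker was thus higher in CD38-positive cells in each pair but did not pass an adjusted p of 0.05 either.

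Hoxa9, the homeobox gene best known for sustaining blood progenitors and for driving leukaemia when overexpressed, was the most abundant Hox gene. It lies at chromosome 6, 52223100 to 52231089, minus strand. Its 522, 812 and 992 reads in CD38-positive replicates 1, 2 and 3 stood against 648, 924 and 1144 in the CD38-negative partners. These were 31.3, 45.9 and 54.7 CPM against 38.6, 51.4 and 69.9 CPM. The CD38-positive library was the lower one in each pair, yet the populations overlapped, since pair 3 lay above pair 1 in both. The log2 fold change of CD38-positive over CD38-negative cells was -0.27 (SE 0.19, n = 3 per population), with an adjusted p of 0.93 in edgeR's quasi-likelihood test. Hoxa9 made up 40.0% to 49.6% of the Hox reads of a library.

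Hoxa10 (52231197 to 52240854), known for effects on progenitor growth and megakaryocyte development, was counted 245, 412 and 624 times in CD38-positive libraries, against 373, 567 and 477 times. It was lower in CD38-positive cells in pairs 1 and 2 (-0.60 and -0.44 on the log2 scale) and higher in pair 3 (0.24). The fit gave -0.26 (SE 0.23), at an adjusted p of 0.94 in edgeR. The populations overlapped. Hoxa7 (52214491 to 52221854), a neighbour of Hoxa9 on the 3′ side of the cluster, had 244, 220 and 413 reads against 268, 266 and 393. It was lower in CD38-positive cells in 3 of 3 pairs (-0.13, -0.25 and -0.08), with a fitted value of -0.15 (SE 0.23, edgeR adjusted p = 0.96). The antisense gene Hoxaas3 covers 20.4% of its merged exons, and strand is not given in the sources used here, so part of its reads could belong to either gene.

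Hoxb5 (chromosome 11, 96303336 to 96306121, plus strand), known as a marker of long-term HSCs in the mouse, was the fourth gene on in every library. CD38-positive libraries held 59, 105 and 201 of its reads, against 52, 164 and 134. Its means were 6.86 ± 3.86 CPM (SD, n = 3) and 6.80 ± 3.24 CPM (SD, n = 3). Pair 2 went down by 0.62 and pairs 1 and 3 went up by 0.19 and 0.44 on the log2 scale, and the fitted value was 0.00 (SE 0.26, edgeR adjusted p = 1). For all of the 4 genes the spread among libraries of a population was wider than the difference between the population means. That spread includes differences in level between pairs, which the model takes out. Within pairs, Hoxa9 differed by -0.30, -0.16 and -0.35 on the log2 scale and Hoxa7 kept 1 sign, while Hoxa10 and Hoxb5 changed sign.

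**Figure D2:**
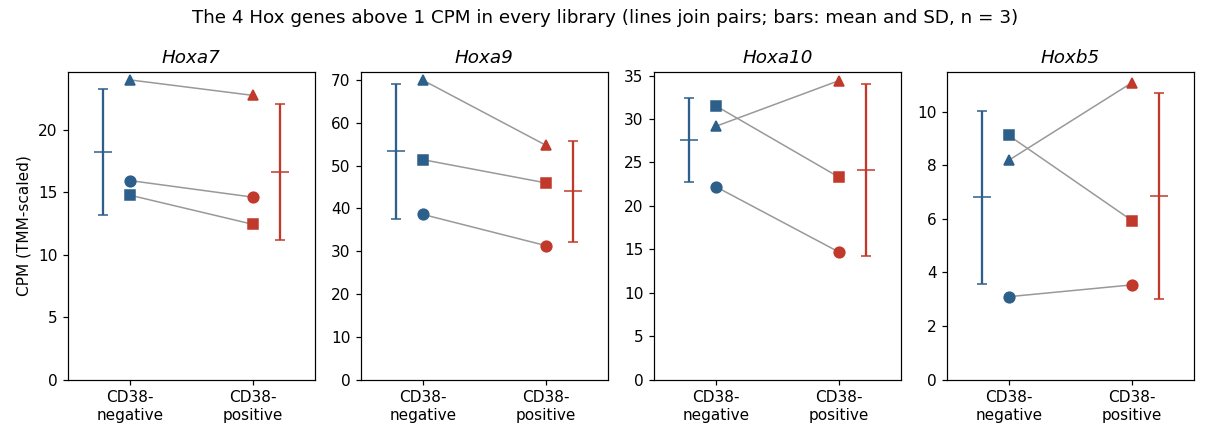
CPM of the 4 Hox genes above 1 CPM in every library, by population; circles, squares and triangles are pairs 1, 2 and 3, grey lines join the libraries of a pair, and the bars at the sides give the mean and SD (n = 3). Hoxa7 and Hoxa9 fall along all 3 lines from CD38-negative to CD38-positive, Hoxa10 and Hoxb5 do not, and the populations overlap for each gene.

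Levels can be compared between genes once divided by length. In CPM per kb of merged exons, averaged over the 6 libraries, the order was Hoxa9 (8.72), Hoxa10 (7.92), Hoxa7 (6.06) and Hoxb5 (2.45), followed by Hoxa5 (0.71) and Hoxa2 (0.66). Hoxa9 exceeded Hoxa10 in 4 of 6 libraries and Hoxa10 exceeded Hoxa7 in 5 of 6, and their ranges overlapped. By this length the order of these 3 was within their spread. The gaps depend on the length used. Per kb of the longest transcript the means of Hoxa9, Hoxa10 and Hoxa7 were 15.1, 10.1 and 8.59 CPM, in the same order and with Hoxa9 further ahead. Hoxa7 was above Hoxb5 in 6 of 6 libraries, with ranges that did not overlap (4.33 to 8.35 against 1.11 to 3.98 CPM per kb). Hoxb5 was above Hoxa5 in 6 of 6, with ranges that overlapped. Below Hoxa5, no adjacent genes in the order were separated beyond their ranges.

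Other genes that were on in at least 1 library, Hoxb6 and Hoxb9 apart, lay in the 3′ parts of clusters A and B at lower levels. Hoxa2, known from hindbrain patterning, was read 16, 18 and 33 times with CD38 and 18, 18 and 19 times without. Hoxa3 had 28, 11 and 43 against 26, 23 and 29, and Hoxa5 had 11, 33 and 40 against 24, 13 and 18. None of the 3 moved one way in all pairs, and their fitted log2 fold changes were 0.18, -0.11 and 0.47 (edgeR adjusted p = 0.97, 0.98 and 0.95). The paralogs between them were weaker: Hoxa4 had 26 reads in all libraries together and Hoxa6 13. Hoxa11 and Hoxa13, on the far side of Hoxa10, had 0.

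In cluster B, Hoxb3 differed most between the populations among the tested Hox genes. CD38-positive libraries held 13, 5 and 36 of its reads, against 18, 50 and 52. CD38-negative replicates 2 and 3 were highest and CD38-positive replicate 2 lowest, and the populations overlapped through pair 1. The log2 fold change was -1.33 (SE 0.57), lower in CD38-positive cells in 3 of 3 pairs (-0.46, -3.30 and -0.68). The unadjusted p of 0.0349 in edgeR's quasi-likelihood test became 0.93 after Benjamini-Hochberg adjustment over all genes. Without pair 2 the log2 fold change was -0.60 (edgeR adjusted p = 1). The antisense gene Hoxb3os covers 52.9% of Hoxb3's merged exons, so reads in those exons may belong to either. Hoxb3os had 20, 38 and 74 reads against 49, 64 and 70 (-0.66 on the log2 scale, edgeR adjusted p = 0.93).

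Pair 2 was also the pair in which HSC transcripts differed most. The HSC genes other than Hox genes took 0.149% of reads in its CD38-positive and 0.292% in its CD38-negative library, against 0.102% and 0.135% in pair 1 and 0.226% and 0.184% in pair 3. The part of this in the Hoxb3 values was not tested. Hoxb2, the next gene, had 6, 18 and 26 reads against 10, 43 and 18 (-0.51 on the log2 scale, SE 0.54, edgeR adjusted p = 0.94). Hoxb4, known for expanding HSCs when overexpressed, had 10, 3 and 6 reads against 5, 4 and 6, so it lay below 1 CPM in every library. Hoxb1 had 13 reads in all libraries together.

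Of the 39 Hox genes, 9 passed the filter on low counts and were tested, and 30 did not pass, 16 of which had at least 1 read. None of the 9 passed an adjusted p of 0.05 in edgeR, where 0.0135% of the 14785 tested genes did. With an unadjusted p under 0.05 there was 1 of the 9 (Hoxb3), against 5.08% of all tested genes in either direction. DESeq2 with the pairs in the model also called 0 of the 9 and gave 1 an unadjusted p under 0.05. Of the 9, 3 (Hoxa7, Hoxa9 and Hoxb3) were lower in CD38-positive cells in all 3 pairs, against 11.3% of all tested genes, and 0 were higher in all 3, against 13.2%. Their median log2 fold change was -0.15, beside 0.00 for all genes tested. Genes of a cluster lie side by side and are not independent of each other.

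**Figure D3:**
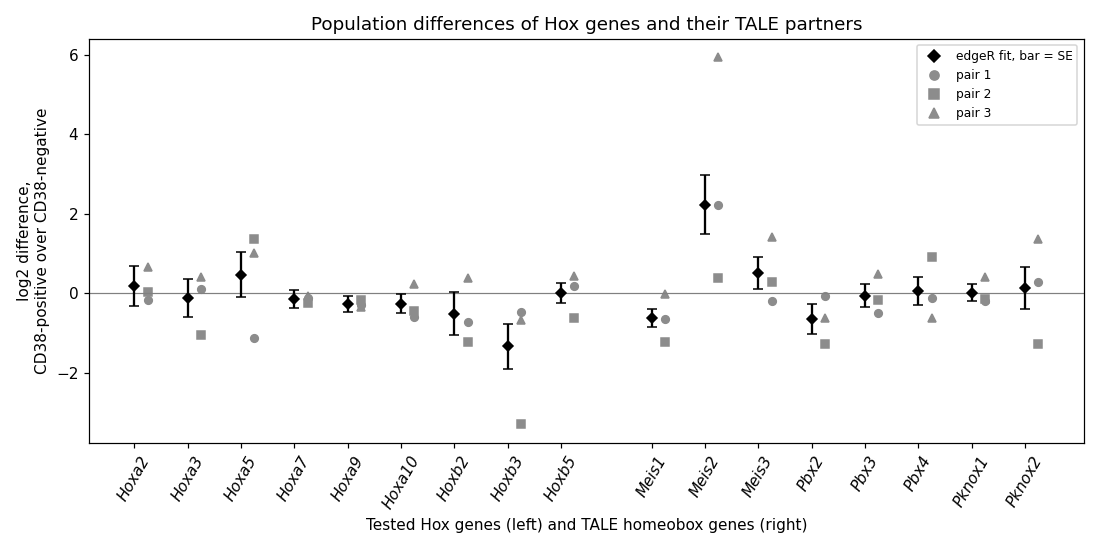
Log2 difference of CD38-positive over CD38-negative cells for the 9 tested Hox genes and 8 TALE homeobox genes; black diamonds are edgeR fits with their SE and grey symbols the differences of single pairs. The single pairs of Hoxb3 run from -3.30 to -0.46 and those of Meis2 from 0.37 to 5.94.

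Summed over cluster A, CD38-positive replicates 1, 2 and 3 had 64.1, 85.3 and 119 CPM and their partners 81.2, 101 and 128 CPM. Pair 1 was low and pair 3 high in both populations, and CD38-positive libraries were lower in each pair by 0.34, 0.25 and 0.10 on the log2 scale. CD38-positive replicate 1, with the lowest sum, had the highest share of granulocyte and monocyte reads (16.9%) and the lowest share of HSC reads (0.102%). Neither share followed the order of the sums in the other libraries. CD38-positive replicate 2 had the lowest granulocyte and monocyte share (8.67%) at 85.3 CPM. CD38-negative replicate 3 had a larger such share and the highest sum (128 CPM). The highest HSC share (0.292%) was in CD38-negative replicate 2, at 101 CPM. The part of either share in the sums was not tested. Cluster B summed to 6.29, 9.22 and 17.8 CPM against 5.42, 16.6 and 13.1 CPM, with pairs of opposite sign.

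Hoxb9, the paralog of Hoxa9 in cluster B (96271457 to 96276595, plus strand), was counted 6, 16 and 28 times in CD38-positive replicates 1, 2 and 3, against 0, 1 and 0 times. Every CD38-positive library lay above every CD38-negative one, and the level was low, at 0.36, 0.91 and 1.54 CPM against 0.00, 0.06 and 0.00 CPM. Over the libraries together, 50 reads stood against 1, a ratio of 48.7 with a 95% exact interval of 8.35 to 1962 that covers counting error only. Hoxb7 had 1, 4 and 3 reads against 0, 0 and 0, levels too low for a fold. Hoxb8 had 0, 2 and 1 against 0, 0 and 0 and its populations overlapped, and Hoxb13 had 0 reads in all 6 libraries. Hoxb6, next to Hoxb7, had 8, 10 and 21 reads against 2, 29 and 5 and overlapped.

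**Figure D4:**
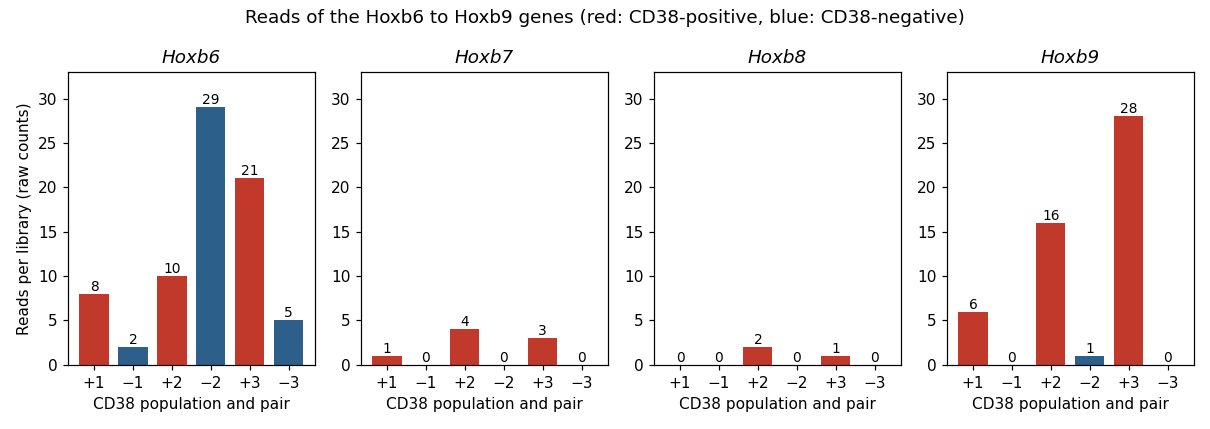
Raw reads per library of Hoxb6, Hoxb7, Hoxb8 and Hoxb9, in bars from 0, with CD38-positive libraries (+) in red and CD38-negative libraries (−) in blue, ordered by pair. Hoxb9 reads are 6, 16 and 28 in CD38-positive and 0, 1 and 0 in CD38-negative libraries, while the tallest Hoxb6 bar (29 reads) is a CD38-negative library.

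Hoxb9 had too few reads for the filter. With the filter reduced to 1 read in all, 26504 genes were tested, 25 of them Hox genes, and Hoxb9 alone among these passed (log2 fold change 5.13, SE 1.18, edgeR adjusted p = 0.00772). In that fit 0.302% of all genes passed, 0.155% of all genes higher in CD38-positive cells, and 3.26% were higher with no overlap between the populations. On the same genes DESeq2 gave Hoxb9 an adjusted p of 0.776 and edgeR's newer estimator 0.824. Without pairs 1, 2 and 3 it was 0.0462, 0.0631 and 0.517 in edgeR. The adjusted p stayed under 0.05 in limma-voom (0.0251) and in edgeR without the pairs in the model (0.0328). In edgeR with DESeq2 size factors it was 0.00769, and with unscaled totals 0.0213. The two-sided exact permutation test that swaps populations within pairs gave p = 0.25, the smallest possible with 3 pairs.

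Other cell types express 5′ Hox genes, so markers of endothelial and stromal cells were set beside Hoxb9. The 10 listed genes took 0.0222%, 0.0108% and 0.0249% of reads in the CD38-positive libraries and 0.0187%, 0.0116% and 0.0114% in the CD38-negative ones. Most of these reads came from Cxcl12 (7387 in all libraries together), Pecam1 (5844) and Emcn (2426). Since Pecam1 is also expressed by some blood cells, the sum does not measure endothelial and stromal cells alone. Of the 8 tested, 0 passed an adjusted p of 0.05 in edgeR, where 0.0135% of all tested genes did. With an unadjusted p under 0.05 there was 1 (Sparc), against 5.08% of all tested genes in either direction. Sparc, a matrix protein gene, had 253, 132 and 164 reads against 118, 25 and 35, higher in 3 of 3 pairs. Its populations did not overlap. Pecam1, an adhesion gene of endothelium and some blood cells, was also higher in 3 of 3 pairs without overlap (906, 1173 and 1203 reads against 853, 855 and 854). Col1a1, a collagen gene, was lower in 3 of 3 pairs without overlap (21, 19 and 15 against 35, 27 and 25). Of all tested genes, 3.33% were higher in CD38-positive cells without overlap and 3.19% lower. Cxcl12, a stromal chemokine gene with the most reads of the list, had 2526, 205 and 2084 against 1753, 397 and 422. Kdr, Emcn, Col1a2 and Lepr, like Cxcl12, overlapped and did not move one way in all pairs. The untested Cdh5, which marks endothelium, had 12, 5 and 5 reads against 6, 2 and 0, and Pdgfra, which marks stromal cells, 2, 0 and 5 against 10, 1 and 0. The part of these cells in the Hoxb9 reads was not tested.

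Clusters C and D were off in both populations. In cluster C, Hoxc10 had 7 reads, all in CD38-positive replicate 2. Hoxc6 had 7 reads over 3 libraries, Hoxc4 had 3, Hoxc5 had 2 and Hoxc9 had 1, and Hoxc8, Hoxc11, Hoxc12 and Hoxc13 had 0. In cluster D, Hoxd9 and Hoxd12 had 1 read each and the other 7 genes had 0. Evx1 and Evx2, the homeobox genes beside clusters A and D, had 0 reads in every library.

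By paralog group, group 9 was highest at 49.1 CPM on average (31.7 to 69.9 over the libraries), then group 10 at 26.0, group 7 at 17.5 and group 5 at 8.18 CPM. In each of these a single gene gave most of the reads: Hoxa9, Hoxa10, Hoxa7 and Hoxb5. Groups 11 and 13 had 0 reads in all 6 libraries, group 12 had 1 and group 8 had 3.

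Other annotated genes within the clusters, most of them non-coding, were counted too. Of 46 other annotated genes in the 4 clusters 33 had 0 reads, among them all 7 of cluster C and all 10 of cluster D. With at least 10 reads were Hotairm1 (31 reads in all), Gm27477 (11), Hoxaas2 (103), Gm15050 (24), Hoxaas3 (646) and Gm29430 (19) in cluster A, and Gm11539 (a processed pseudogene between Hoxb13 and Hoxb9, 250), Hoxb5os (176) and Hoxb3os (315) in cluster B. Of these, 5 were tested and 0 passed an adjusted p of 0.05 in edgeR, where 0.0135% of all tested genes did. Nor had any an unadjusted p under 0.05, against 5.08% of all tested genes in either direction. Hoxaas3, antisense to the Hoxa3 to Hoxa7 stretch, had 64, 79 and 162 reads against 92, 89 and 160, and it was lower in CD38-positive libraries in 3 of 3 pairs (log2 fold change -0.26, edgeR adjusted p = 0.94). Hoxb3os was also lower in 3 of 3, as were 11.3% of all tested genes. Gm11539 was higher in 3 of 3 (43, 53 and 51 reads against 41, 33 and 29, 0.48 on the log2 scale, edgeR adjusted p = 0.93), as were 13.2% of all tested genes.

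Among the TALE partners, Meis1 and Meis2 had fitted values of opposite sign. Meis1, whose protein binds DNA with HOXA9, was counted 1750, 2494 and 4063 times in CD38-positive replicates 1, 2 and 3, against 2783, 5924 and 3682 times. It was lower in CD38-positive cells in pairs 1 and 2 (-0.66 and -1.22 on the log2 scale) and level in pair 3 (-0.01). Meis2 ran the other way at a low level, with 28, 28 and 68 reads against 6, 22 and 1, and its populations did not overlap, as for 3.33% of all tested genes in that direction. The fitted value was 2.23 on the log2 scale (SE 0.75), with an unadjusted p of 0.00994 in edgeR and an adjusted p of 0.93. Pbx2 was lower without overlap (-0.65 on the log2 scale, SE 0.37, edgeR adjusted p = 0.93), as were 3.19% of all tested genes. All 9 TALE genes were tested and 0 passed the adjusted threshold, where 0.0135% of all tested genes did. Of the 9, 2 had an unadjusted p under 0.05 (Meis1 lower, against 2.61% of all tested genes, and Meis2 higher, against 2.47%).

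The regulators known to keep Hox genes active or silent gave no calls at an adjusted p of 0.05 in edgeR, where 0.0135% of all tested genes passed. With so low a share over all genes, a count of 0 says little of these regulators. Of 16 genes of MLL and related complexes 0 passed, with a median log2 fold change of 0.05. Kmt2a, which encodes MLL1, was at 26.7 ± 4.80 CPM (SD, n = 3) and 25.5 ± 1.91 CPM (SD, n = 3), and Men1, its cofactor menin, at 18.4 ± 7.44 and 16.1 ± 2.54 CPM (SD, n = 3 each). Of 18 Polycomb genes and their opponents 0 passed, with a median of -0.12. Ezh2, the methyltransferase of Polycomb complex PRC2, was at 37.3 ± 1.67 and 35.6 ± 3.28 CPM, and Bmi1, a PRC1 subunit required for HSC renewal, at 23.3 ± 4.07 and 27.9 ± 6.26 CPM (SD, n = 3 each). None of the genes in these lists had an unadjusted p under 0.05 in edgeR, against 5.08% of all tested genes in either direction. The Cdx genes, which activate Hox genes in the embryo, had 0 reads in all 6 libraries.

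Of 16 genes linked to Hoxa9 and Meis1 in blood cells, 0 passed an adjusted p of 0.05 in edgeR, where 0.0135% of all tested genes did. With an unadjusted p under 0.05 there were 2, Hlf and Sox4, against 5.08% of all tested genes in either direction. Sox4, a transcription factor gene of progenitors, was counted 333, 293 and 371 times with CD38 and 403, 611 and 506 times without. Its populations did not overlap, as for 3.19% of all tested genes in that direction, and the fitted value was -0.63 on the log2 scale (SE 0.23, edgeR adjusted p = 0.93). Erg, another gene of the list, was also lower without overlap (-0.53 on the log2 scale, SE 0.26, edgeR adjusted p = 0.93). Hlf, an HSC transcription factor gene, was at 53.1 ± 23.1 CPM against 96.0 ± 48.0 CPM (SD, n = 3 each) and overlapped. The median of the list was -0.15, beside 0.00 for all genes tested.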

How the data were processed

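Gene expression was measured by bulk RNA-seq in 6 libraries, grouped by the population label. The authors deposited raw read counts per Ensembl gene, 1 table per library. Per the submitters' processing notes, cutadapt, STAR and HTSeq 0.6.1p1 were used with GRCm38 (mm10); strand setting, counting mode and annotation release are not given in the sources used here. Symbols, biotypes, lengths and coordinates came from GENCODE M21 (GRCm38), which matched 49326 of 49585 identifiers; promoter and miRNA sequences came from RefSeq (GRCm38.p6).

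In R 4.3.3, genes were filtered with filterByExpr (14785 kept), scaled by TMM and tested with edgeR 4.0.16 (glmQLFit and glmQLFTest, earlier estimator) in a model of pair plus population, with Benjamini-Hochberg adjustment over all tested genes and a threshold of 0.05. The pair was a replicate block because the design text matches the libraries; across genes, the residuals of matched libraries correlated at 0.34, 0.12 and 0.24. Replicates were distinct libraries: chi-square divided by its degrees of freedom was 51.4 to 116 within populations. Alternatives used DESeq2 1.42.0, limma 3.58.1 (voom), other scalings and filters, and each pair left out. The procedure was run on simulated counts with large changes planted only in genes with enough reads. That check does not cover genes with few reads, such as Hoxb9, or small differences. Pair differences are log2 ratios of CPM without a pseudocount. No libraries were left out of the main fit.

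Hox genes were named when on (at least 1 CPM) in a library; others are given by cluster, and genes of other lists when their unadjusted p was under 0.05 or they were preset. Hoxb7, Hoxb8, Hoxc10, Pbx2, Erg and the marker genes beside Hoxb9 were chosen after their values were seen. The members, lists and tests were chosen with earlier results of these data known. Some results for single genes are not reported here.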

Additional observations from a re-analysis of the deposited data

How the results depend on the processing

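The number of Hox genes past the threshold, 0 in the fit with the replicate block, was 0 without it and under 11 of the 12 alternatives, including each pair left out (0 to 0); it was 1 (Hoxb9) with no filter beyond 1 read. Without the block Hoxa3 changed sign, from -0.113 to 0.0247, and no call changed. The fitted value of Hoxb5, 0.00 in the main fit, was -0.00402 in limma-voom, -0.0134 with unscaled totals and -0.00452 with edgeR's newer estimator. Leaving out 1 pair at a time gave -0.238 to 0.311 for Hoxb5, -0.0671 to 0.344 for Hoxa2 and -0.411 to 0.259 for Hoxa3. For Hoxb9 without the filter, the call was kept in limma-voom, without the block and with the other scalings. Its log2 fold change was 5.13, and the call was lost in DESeq2 (5.31) and with the newer estimator (5.13). It lay between 4.25 and 6.98 with 1 pair left out, with edgeR adjusted p-values of 0.0462, 0.0631 and 0.517 without pairs 1, 2 and 3; the cause was not tested. The number of Hox genes on in all 6 libraries, 4 at 1 CPM, was 7 at 0.5 CPM, 10 at 3 reads and 11 at 1 read, and 4 to 6 with 1 pair left out. The mean pair difference of cluster B was -0.06, and 0.33 without pair 2; clusters C and D had libraries at 0 and no such value. Levels under 3 reads, at most 0.183 CPM, were not detectable. The newer estimator and the Hoxb9 alternatives were chosen after seeing the data.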
